A study of Homo sapiens with 8 samples.

Results

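The genes of cholesterol and fatty acid synthesis were followed in human hepatocarcinoma cells made to express GRHL2, a Grainyhead-type transcription factor of epithelial cells. They were taken as a list of 33 gene symbols (enzymes of both pathways, their sterol-sensing regulators and 2 sterol transport proteins) and were picked by symbol, with no threshold on a measured value. Of these, 32 had a row among the 17561 genes of the expression table, and INSIG1 was not analysed here. The question put to them was whether their mRNAs changed upon GRHL2 expression, and whether they did so together.

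HepG2 cells, an established line from a human liver tumor, received either pGRHL2 or the control vector pcDNA3, and RNA was collected 48 h later. There were 4 libraries per plasmid, which the labels number 1 to 4, from paired-end mRNA sequencing (150 bp reads). Cells of both groups were kept on gelatin in William E medium with 10% fetal bovine serum, 20 mU/ml insulin and 50 nM dexamethasone, so that insulin, glucocorticoid and serum lipids were present under both plasmids. pGRHL2 carried a flag-tagged GRHL2 cDNA under the EEF1A1 promoter together with a GFP reporter, so the plasmids differed in more than GRHL2, and transfected cells were sequenced together with those that had taken up no plasmid. The study calls the libraries independent biological replicates, while the labels give only the numbers. The p-values below measure the spread of the differences between same-numbered libraries, except those of a fit that ignored the numbers.

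Cholesterol is built from acetyl-CoA through the mevalonate pathway to isoprenoid units, which are joined to squalene and closed into the sterol ring. Its genes are switched on by SREBP-2 (SREBF2), whereas SREBP-1c (SREBF1) mainly drives fatty acid synthesis and responds to insulin in liver cells. Both precursors are held in the endoplasmic reticulum by SCAP and INSIG proteins when sterols are abundant, and move to the Golgi to be cleaved when sterols fall. Hepatocytes are a main site of both pathways.

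Values were on a log2 scale and, according to the methods, divided by transcript length by the authors. How length entered these log2 values could not be checked. They ranged from -3.76 to 17.3 over all genes, library medians lay between 6.71 and 6.73, and the sequencing depth behind them was unknown. Averaging the pGRHL2 and pcDNA3 libraries of one number gave, for each of the 17561 genes, the same mean in the 4 pairs. Within a pair the values of the plasmids therefore mirrored each other, and whether the pGRHL2 library of a pair was high or its pcDNA3 library low cannot be told apart. Differences are given as log2 fold changes (log2 FC, pGRHL2 minus pcDNA3) over the 4 pairs. Because the pair means were equal, the groups of a gene did not overlap exactly where all 4 pair differences had the same sign. Whether they overlapped before the pair means were made equal is unknown. As a check of the labels, GRHL2 differed by 8.97, 9.51, 10.26 and 9.18 in pairs 1 to 4. The hepatocyte markers ALB and AFP had mean log2 values of 16.88 and 17.11, and those of the endothelial marker PECAM1 and the fibroblast marker COL1A1 were 5.43 and 5.82.

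The members spanned a wide range of levels in these cells. The highest mean log2 values per length were those of FASN, the fatty acid synthase (12.27), SCD, which puts the first double bond into stearate (11.66), FDFT1, the squalene synthase (11.58), ACLY, which makes cytosolic acetyl-CoA from citrate (11.34), and SQLE, the squalene epoxidase (11.25). FASN stood above 98.5% of all genes, and 27 of the 32 members lay above the middle of the table. At the lower end were CYP51A1, the lanosterol demethylase (2.5), LSS, the lanosterol synthase (4.28), and ACACA, the cytosolic acetyl-CoA carboxylase (4.90). For these 3 genes the level is uncertain. CYP51A1 shared 74.1% of its exon bases with other annotated genes, and the longest transcripts of ACACA and LSS aligned to alternate contigs of hg38 over 100% and 88.2% of their length. The part of this in their levels was not tested.

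**Figure D1:**
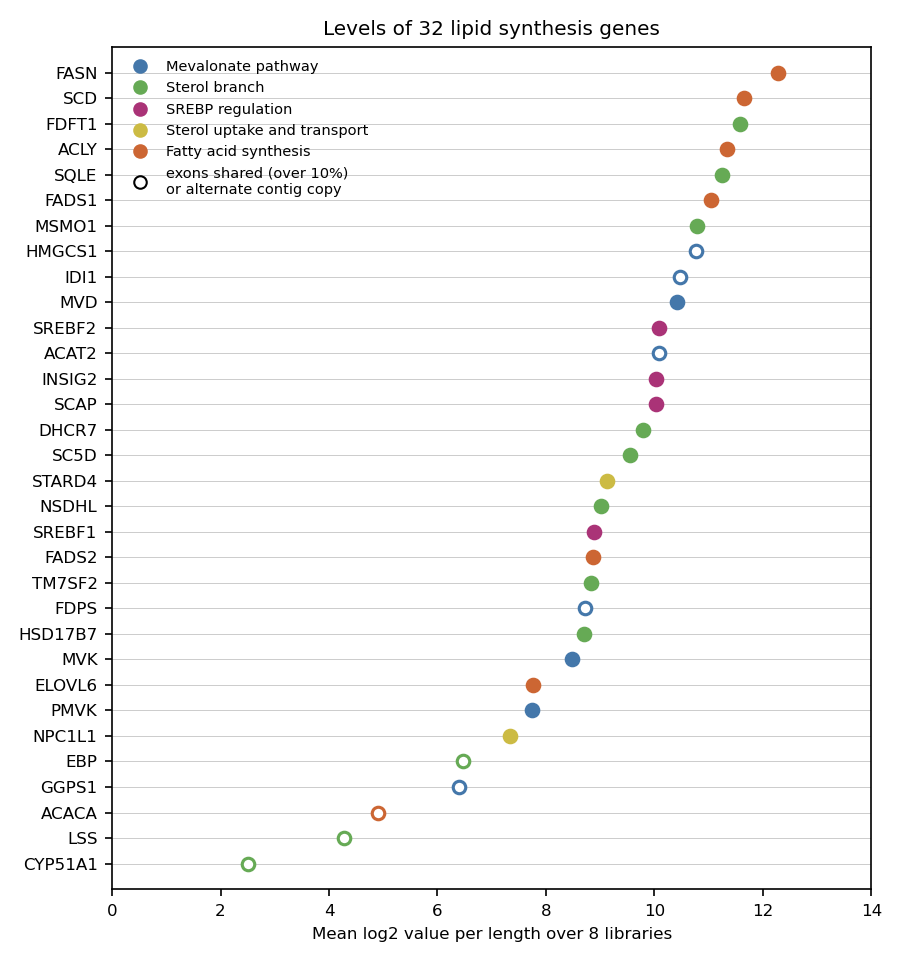
Mean log2 value per length of the 32 genes over all 8 libraries, ordered by level and coloured by role; open circles mark genes with over 10% of exon bases shared with another gene or a copy on an alternate contig. The scale runs from CYP51A1 (2.5) to FASN (12.27), and the 3 lowest genes are all open circles.

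None of the 32 members passed the test. At an adjusted p under 0.05 (limma on all genes with the replicate number as a block, Benjamini-Hochberg adjustment), 0 members were called, against 2.19% of all genes in either direction (1.69% higher and 0.501% lower in pGRHL2). An unadjusted limma p under 0.05 was found for 2 members, TM7SF2 and DHCR7, or 6.25%, against 16% of all genes. A fit without the replicate block, which counts degrees of freedom that the removal of the pair means had used, called TM7SF2 and DHCR7 higher (limma adjusted p of 0.00723 and 0.0192) and SREBF2 lower (0.0440), against 10.4% of all genes higher and 8.13% lower. The differences were small, and the limma intervals around them were narrow. All 32 had a 95% interval within 0.5 log2 units of 0 in either direction, that is within 1.41-fold, and 30 of the 32 intervals held 0. The limma standard errors are moderated across all genes. For members that vary much between pairs, such as FASN (SD over the pairs 0.38, limma standard error 0.12), the pairs alone bound the change less tightly. The median log2 FC of the members was 0.019, compared with 0.0017 over all genes and -0.010 over genes with a mean log2 value of at least 5. The log2 FC was above 0 in 20 members and below 0 in 12. The share above 0 was 62.5%, against 51.5% of all genes and 45.2% of those with a mean of at least 5. In these bulk values, fewer cells making a transcript and less transcript per cell cannot be told apart, and a change limited to transfected cells is diluted by the others.

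**Figure D2:**
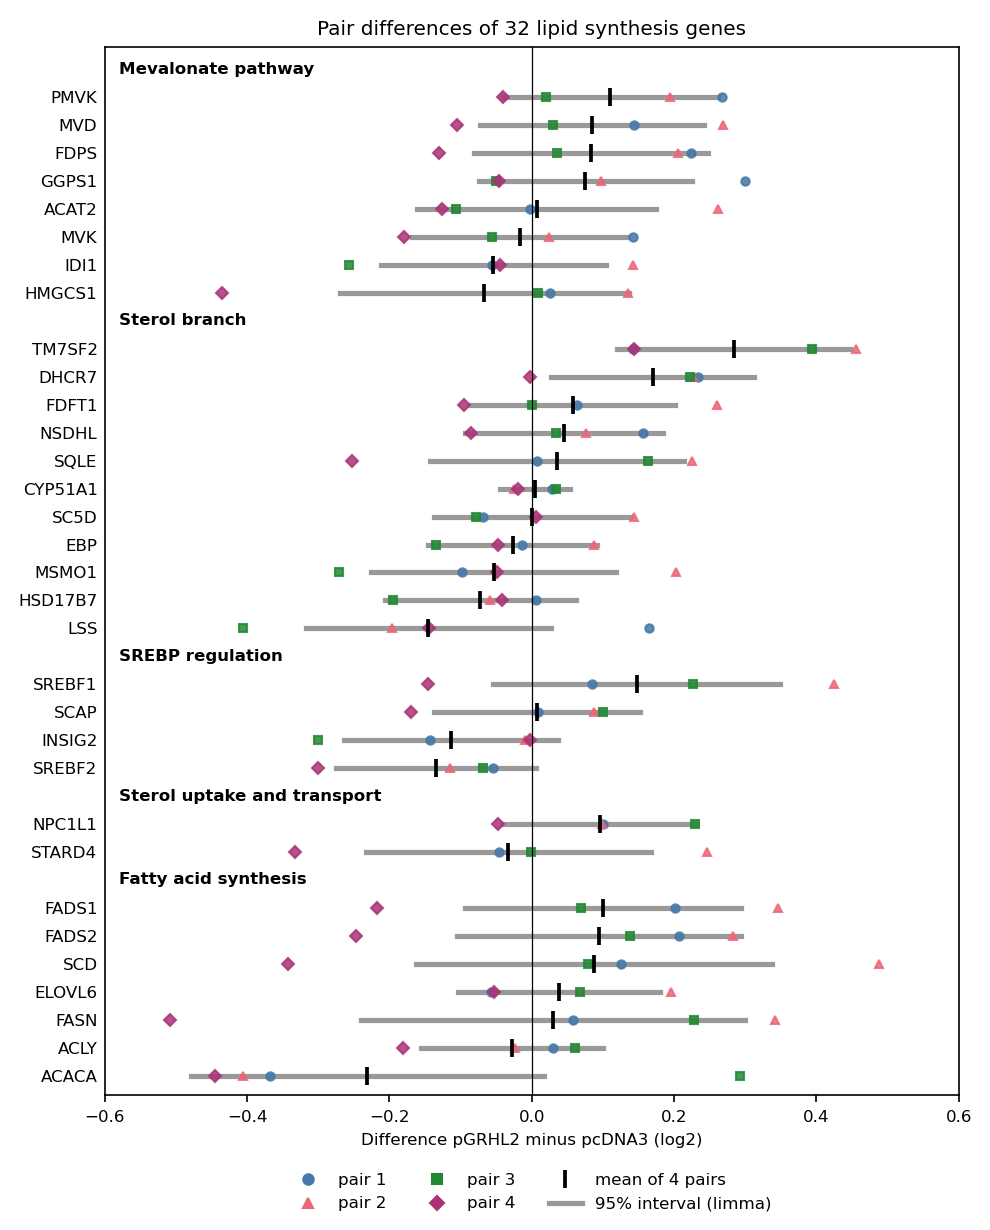
Difference pGRHL2 minus pcDNA3 (log2) of each of the 32 genes in pairs 1 to 4, grouped by role, with the mean of the 4 pairs as a black tick and the 95% limma interval as a grey bar. The intervals of TM7SF2 and DHCR7 lie to the right of 0 and the other 30 hold it, and the pair 4 diamonds lie to the left of 0 for 30 of the 32 genes.

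Among the 8 genes of the mevalonate pathway, which leads from acetyl-CoA to farnesyl and geranylgeranyl units, 0 passed the test and the median log2 FC was 0.041. PMVK, the phosphomevalonate kinase, had the largest difference of this group. Its log2 values were 7.89, 7.85, 7.76 and 7.73 in pGRHL2 libraries 1 to 4 and 7.62, 7.65, 7.74 and 7.77 in pcDNA3 libraries 1 to 4. The pGRHL2 library was the higher one in pairs 1 to 3 and the lower one in pair 4, so the groups overlapped. The log2 FC was 0.11 ± 0.14 (SD over n = 4 pairs; limma adjusted p = 0.477).

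The other mevalonate genes had log2 FC from -0.066 for HMGCS1, the HMG-CoA synthase, to 0.084 for MVD, the mevalonate diphosphate decarboxylase. In between were FDPS, the farnesyl diphosphate synthase (0.084), GGPS1, the geranylgeranyl diphosphate synthase (0.075), ACAT2, the cytosolic thiolase (0.0068), MVK, the mevalonate kinase (-0.017), and IDI1, the isopentenyl diphosphate isomerase (-0.054). In pairs 1 and 3 the group was mixed, with 6 and 4 of 8 genes higher in pGRHL2. In pair 2, 8 of the 8 were higher in pGRHL2, with a median difference of 0.17, and in pair 4, 8 of the 8 were lower, with a median difference of -0.12. HMGCS1 had the widest range of this group, from 0.14 in pair 2 to -0.44 in pair 4. HMGCS1, GGPS1, ACAT2, FDPS and IDI1 each shared between 14.97% and 40.96% of their exon bases with a neighbouring or antisense gene, whose reads were not separated by strand.

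The sterol branch, 11 genes from squalene to cholesterol, had 0 calls, a median log2 FC of 0.0045 and the highest log2 FC of all 32 members. TM7SF2 encodes a sterol reductase of the endoplasmic reticulum that removes the C14 double bond after the lanosterol demethylation, and its gene spans 65111845 to 65116384 on chromosome 11 of hg38 (GENCODE, plus strand). Its log2 values were 8.90, 9.06, 9.03 and 8.90 in pGRHL2 libraries 1 to 4, and 8.76, 8.60, 8.63 and 8.76 in pcDNA3 libraries 1 to 4. The pair differences were 0.14, 0.46, 0.39 and 0.14, all above 0, so the groups did not overlap. The log2 FC was 0.28 ± 0.16 (SD over n = 4 pairs; 95% interval 0.12 to 0.45), or 1.22-fold. With a limma adjusted p of 0.0875 it did not pass the test, and the exact two-sided sign-flip test over the pairs gave 0.125, the smallest p that 4 pairs allow. TM7SF2 was the only member whose groups did not overlap with pGRHL2 above. Of this kind were 13.4% of all genes and 8.96% of those with a mean log2 value of at least 5.

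DHCR7, the reductase that turns 7-dehydrocholesterol into cholesterol (chromosome 11, 71428193 to 71452868, minus strand), was next. In pGRHL2 libraries 1 to 4 its log2 values were 9.91, 9.91, 9.91 and 9.79, and in pcDNA3 libraries 1 to 4 they were 9.68, 9.68, 9.68 and 9.80. Pairs 1 to 3 were nearly superimposed, with differences of 0.23, 0.23 and 0.22, while pair 4 gave -0.0026. Its log2 FC of 0.17 ± 0.12 (SD over n = 4 pairs; limma adjusted p = 0.224) did not pass the test either.

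LSS, which closes squalene epoxide into lanosterol, had the largest negative value of the branch, and its level is uncertain as described above. Libraries 1 to 4 had log2 values of 4.36, 4.18, 4.08 and 4.21 with pGRHL2, and 4.20, 4.38, 4.48 and 4.35 with pcDNA3. Pair 1 was higher in pGRHL2 and the other 3 pairs were lower. This gave a log2 FC of -0.15 ± 0.24 (SD over n = 4 pairs; limma adjusted p = 0.403).

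HSD17B7, a 3-ketosteroid reductase that acts during C4 demethylation, had pGRHL2 log2 values of 8.70, 8.67, 8.60 and 8.68 and pcDNA3 log2 values of 8.69, 8.73, 8.79 and 8.72 in libraries 1 to 4. Pair 1 differed by 0.0064 and the others were lower in pGRHL2. Over the pairs the log2 FC was -0.072 ± 0.087 (SD over n = 4 pairs; limma adjusted p = 0.623). The remaining 7 genes of the branch lay between -0.054 for MSMO1, a C4-methylsterol oxidase, and 0.058 for FDFT1. SQLE (0.036), NSDHL, the C4 decarboxylating dehydrogenase (0.046), EBP, the sterol isomerase, with 36.4% of its exon bases shared (-0.027), SC5D, the C5 desaturase (0.00068), and CYP51A1 (0.0045) fell within this range.

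The promoters of TM7SF2 and DHCR7, the members with an unadjusted p under 0.05, are shown with that of SREBF2, the regulator described next. They were taken from RefSeq (GRCh38.p14) as 300 bases, 250 before and 50 after the start site, on the strand of the gene and 5′ to 3′. Capitals mark a GC box (GGGCGG or its complement CCGCCC), an NF-Y box (CCAAT or ATTGG), a sterol regulatory element (TCACCCCAC) or a loose Grainyhead element (AACNNGTT). TM7SF2 lies at chr11:65111622-65111921 on the plus strand, the 2 DHCR7 promoters at chr11:71448344-71448643 and chr11:71448994-71449293 on the minus strand, and SREBF2 at chr22:41832855-41833154 on the plus strand.
TM7SF2: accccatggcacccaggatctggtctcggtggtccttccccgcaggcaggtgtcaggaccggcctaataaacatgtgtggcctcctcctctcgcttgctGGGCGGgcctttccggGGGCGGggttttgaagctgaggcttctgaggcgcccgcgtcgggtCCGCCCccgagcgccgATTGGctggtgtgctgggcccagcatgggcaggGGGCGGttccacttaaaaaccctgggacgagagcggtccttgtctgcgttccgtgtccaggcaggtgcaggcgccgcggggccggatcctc
DHCR7, first: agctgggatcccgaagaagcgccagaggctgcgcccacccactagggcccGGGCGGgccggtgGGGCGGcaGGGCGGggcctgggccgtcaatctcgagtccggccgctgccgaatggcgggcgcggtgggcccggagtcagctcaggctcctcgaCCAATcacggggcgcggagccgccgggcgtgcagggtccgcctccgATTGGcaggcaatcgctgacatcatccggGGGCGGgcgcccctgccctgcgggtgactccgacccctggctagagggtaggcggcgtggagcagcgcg
DHCR7, second: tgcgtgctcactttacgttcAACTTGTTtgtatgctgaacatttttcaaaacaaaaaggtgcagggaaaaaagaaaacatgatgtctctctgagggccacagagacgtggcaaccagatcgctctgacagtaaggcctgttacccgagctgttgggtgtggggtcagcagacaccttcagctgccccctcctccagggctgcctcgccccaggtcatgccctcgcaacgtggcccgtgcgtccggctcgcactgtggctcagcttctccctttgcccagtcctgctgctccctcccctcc
SREBF2: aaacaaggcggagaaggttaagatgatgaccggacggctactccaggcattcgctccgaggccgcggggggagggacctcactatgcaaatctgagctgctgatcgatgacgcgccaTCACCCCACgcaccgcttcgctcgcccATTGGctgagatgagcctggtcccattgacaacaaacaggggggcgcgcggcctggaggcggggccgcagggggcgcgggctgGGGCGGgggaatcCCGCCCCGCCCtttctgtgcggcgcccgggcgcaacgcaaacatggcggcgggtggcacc
The TM7SF2 promoter held 4 GC boxes and 1 NF-Y box, and the first DHCR7 promoter 4 GC boxes and 2 NF-Y boxes. The SREBF2 promoter held the sterol regulatory element at position -133 relative to the start site and an NF-Y box at -106. The second DHCR7 promoter held the letters AACTTGTT at -230 and no other of the motifs searched.

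RefSeq promoters were found for 28 of the 32 members, 40 promoters in all, and both strands were searched. The NF-Y box CCAAT was present in 25 of the 40 (62.5%), against 34.6% of 35116 promoters of the same length and 34.2% of those of genes in the expression table. The GC box GGGCGG was present in 34 of the 40 (85%), against 45.0% of all promoters and 62.4% of those of genes in the table. The strict sterol regulatory element TCACCCCAC was found in SREBF2 only (1 of 40, against 0.430% of all promoters). Its looser form TCANNCCAC, which includes the strict one, was found in SREBF2 and ACLY (2 of 40, against 3.82%). The Grainyhead element AACCGGTT was in 0 of the 40 (0.134% of all promoters), and its looser form AACNNGTT in 1, the second DHCR7 promoter (3.52% of all promoters). Among these letters, NF-Y and GC boxes were thus the common ones. A match is a description of letters and not of binding.

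Of the 4 regulators of SREBP activity, 0 passed the test, 2 had a positive and 2 a negative log2 FC, and the median was -0.053. SREBF1, the gene of SREBP-1, had log2 values of 8.92, 9.09, 8.99 and 8.81 in pGRHL2 libraries 1 to 4, and 8.84, 8.67, 8.76 and 8.95 in pcDNA3 libraries 1 to 4. It was higher in pGRHL2 in pairs 1 to 3, most so in pair 2, and lower in pair 4. This gave a log2 FC of 0.15 ± 0.24 (SD over n = 4 pairs; limma adjusted p = 0.475).

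SREBF2, the gene of SREBP-2 (chromosome 22, 41833105 to 41907306, plus strand), had log2 values of 10.06, 10.03, 10.06 and 9.94 in pGRHL2 libraries 1 to 4, and 10.12, 10.15, 10.13 and 10.24 in pcDNA3 libraries 1 to 4. SREBF2 was lower in pGRHL2 in 4 of 4 pairs, so its groups did not overlap. The log2 FC was -0.13 ± 0.11 (SD over n = 4 pairs; limma adjusted p = 0.335). INSIG2, which retains SCAP in the endoplasmic reticulum, had log2 values of 9.96, 10.03, 9.88 and 10.03 in pGRHL2 libraries 1 to 4, and 10.10, 10.04, 10.18 and 10.03 in pcDNA3 libraries 1 to 4.

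INSIG2 was thus also lower in every pair, though with differences of -0.0094 in pair 2 and -0.0024 in pair 4. Its log2 FC was -0.11 ± 0.14 (SD over n = 4 pairs; limma adjusted p = 0.460). SREBF2 and INSIG2 were the 2 members (6.25%) whose groups did not overlap with pGRHL2 below. Of this kind were 10.5% of all genes and 13.6% of those with a mean log2 value of at least 5. Together with TM7SF2, 3 of the 32 members (9.38%) had groups that did not overlap. The shares were 24% of all genes and 22.5% of those with a mean of at least 5. SCAP, the sterol sensor that escorts SREBP, had a log2 FC of 0.0070.

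Of the 2 sterol transport proteins, NPC1L1, the cholesterol uptake transporter, had log2 values of 7.40, 7.40, 7.46 and 7.32 in pGRHL2 libraries 1 to 4, and 7.30, 7.30, 7.23 and 7.37 in pcDNA3 libraries 1 to 4. Again pairs 1 to 3 were higher in pGRHL2 and pair 4 was lower. Its log2 FC was 0.095 ± 0.11 (SD over n = 4 pairs; limma adjusted p = 0.499). STARD4, a carrier of cholesterol between membranes, had a log2 FC of -0.033, with pair differences from -0.33 to 0.25.

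Fatty acid synthesis (7 genes) had 0 calls and a median log2 FC of 0.038, but the widest spread between pairs. ACACA, which commits acetyl-CoA to fatty acids and whose level is uncertain as given above, had the most negative log2 FC of all members (chromosome 17, 37084992 to 37406836, minus strand). Its log2 values were 4.71, 4.70, 5.04 and 4.68 in pGRHL2 libraries 1 to 4, and 5.08, 5.10, 4.75 and 5.12 in pcDNA3 libraries 1 to 4. Pairs 1, 2 and 4 were lower in pGRHL2, with differences of -0.37, -0.41 and -0.45, and pair 3 was higher by 0.29. A log2 FC of -0.23 ± 0.35 (SD over n = 4 pairs; limma adjusted p = 0.351) resulted. Without pair 3 it was -0.41, with a limma adjusted p of 0.0158, which made ACACA the only member called when a pair was left out.

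FADS1, the delta-5 desaturase of polyunsaturated fatty acids, had the highest log2 FC of this group. Its log2 values were 11.14, 11.21, 11.07 and 10.93 in pGRHL2 libraries 1 to 4, and 10.94, 10.87, 11.005 and 11.15 in pcDNA3 libraries 1 to 4. Pairs 1 to 3 were higher in pGRHL2 and pair 4 lower. It had a log2 FC of 0.10 ± 0.24 (SD over n = 4 pairs; limma adjusted p = 0.642), and FADS2, the delta-6 desaturase of the same locus, one of 0.095 and pair differences of 0.21, 0.28, 0.14 and -0.25.

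FASN and SCD, named for their range over the pairs once their values had been seen, also had their highest difference in pair 2 and their lowest in pair 4. FASN had log2 values of 12.30, 12.45, 12.39 and 12.02 in pGRHL2 libraries 1 to 4, and 12.25, 12.10, 12.16 and 12.53 in pcDNA3 libraries 1 to 4. Its pair 4 difference of -0.51 was the most negative among the members, beside a log2 FC of 0.030 ± 0.38 (SD over n = 4 pairs). SCD differed by 0.12, 0.49, 0.079 and -0.34 in pairs 1 to 4, and its pair 2 difference was the most positive among the members. ACLY and ELOVL6, the elongase of palmitate, had log2 FC of -0.028 and 0.038.

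**Figure D3:**
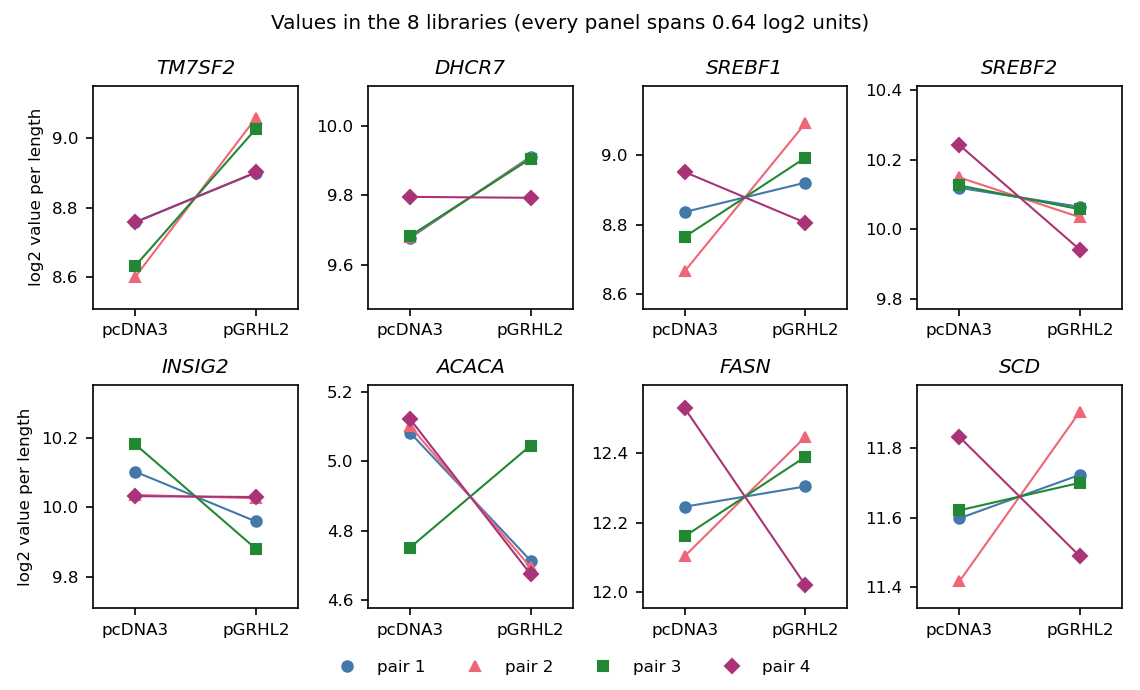
Log2 values per length of 8 members in the pcDNA3 and pGRHL2 libraries, with a line joining each pair; every panel spans the same range. Lines of a gene cross at its mean because pair means were equal; the pGRHL2 point of TM7SF2 is above and that of SREBF2 below its pcDNA3 point in every pair, while those of FASN and SCD are above in pairs 1 to 3 and below in pair 4.

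Most members were higher in pGRHL2 in pairs 1 to 3, with the largest median in pair 2, and most were lower in pair 4. In all of pairs 1 to 3, 16 of the 32 members were higher in pGRHL2, against 21.3% of all genes. With pair 1, 2 or 3 left out instead, 1 of the 32 was higher in all remaining pairs. The shares of all genes were then 17.8%, 18.8% and 20.4%. The median difference of the 32 members was 0.044 in pair 1, 0.17 in pair 2, 0.032 in pair 3 and -0.12 in pair 4. These medians correspond to 1.03-, 1.12-, 1.02- and 0.923-fold. The number of members higher in pGRHL2 was 22, 25, 20 and 2 of 32 in pairs 1 to 4, so that 30 members were lower in pair 4. Among all genes the share higher in pGRHL2 stayed between 51.5% and 52.3% in every pair, and among genes with a mean log2 value of at least 5 between 45.9% and 48.0%. The pairs are the replicates here, so these counts describe 4 pairs and carry no test.

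The median of every role group was highest in pair 2 and lowest in pair 4, while single members differed. In the sterol branch, 5 of 11 genes had their lowest difference in pair 3 and 4 in pair 4. Among the 4 regulators of SREBP activity, each pair was the highest for 1 gene. In pair 2, 17 of the 32 members (53.1%) had their highest difference, compared with 25.8% of all genes, and in pair 4, 21 (65.6%) had their lowest, compared with 28.8% of all genes. Both held for 11 members (34.4%, against 10.8% of all genes). They were HMGCS1, MVD and ACAT2 of the mevalonate pathway, FDFT1 and SQLE of the sterol branch, SREBF1, STARD4, and FASN, SCD, FADS1 and FADS2 of fatty acid synthesis. The fatty acid synthesis genes had the widest swing, with medians of 0.058, 0.28, 0.079 and -0.25 in pairs 1 to 4 and 7 of 7 genes lower in pair 4. The medians of the sterol branch were 0.028, 0.14, 0.0010 and -0.047, and TM7SF2 and SC5D were the 2 members higher in pair 4.

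**Figure D4:**
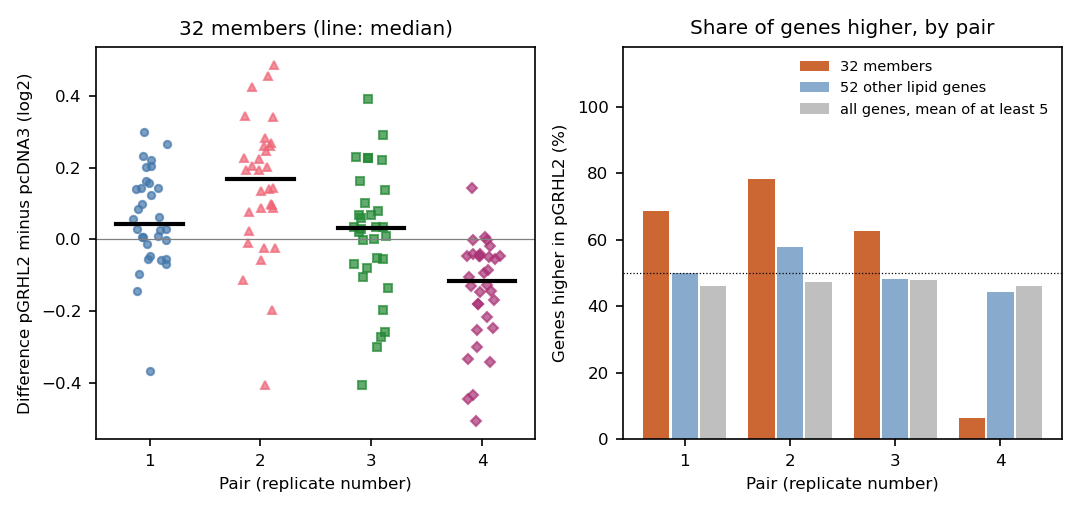
Left, difference pGRHL2 minus pcDNA3 (log2) of each of the 32 genes in pairs 1 to 4, with the median as a line; right, share of genes higher in pGRHL2 in each pair for the 32 genes, 52 other lipid genes and all genes with a mean log2 value of at least 5. The 32 genes go from a median of 0.17 in pair 2 to -0.12 in pair 4, where 6.25% of them were higher against 44.2% of the other lipid genes.

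Pair 2 had the highest and pair 4 the lowest median under the other settings tried as well. In the 23 members with at most 10% of exon bases shared and no alternate copy, the pair medians were 0.064, 0.20, 0.061 and -0.10. Rescaling the libraries to the same total without GRHL2 gave 0.056, 0.17, 0.068 and -0.11, and removing trends on level, length and GC content gave 0.059, 0.20, 0.046 and -0.10, with 28 of the 32 members lower in pair 4 in both cases. The hepatocyte markers ALB, AFP, TTR, APOA1 and FGB were all higher in pGRHL2 in pair 2, by 0.26 to 0.77, and ranged from -0.13 to 0.13 in pair 4. Their summed level lay between 17.96 and 18.19 in pGRHL2 and between 17.86 and 18.10 in pcDNA3 libraries, with differences of -0.084, 0.33, -0.13 and -0.12 in pairs 1 to 4. Like the median of the members, it was thus highest in pair 2 and below 0 in pair 4, but it was also below 0 in pairs 1 and 3. The summed level of 4 cholangiocyte markers (KRT7, KRT19, EPCAM and SOX9) differed by 0.26, -0.25, 0.11 and 0.43 in pairs 1 to 4. This sum mostly follows KRT19, the marker with the highest level (mean log2 value 13.90). In pair 2 only KRT19 was lower in pGRHL2 (-0.34), while KRT7, EPCAM and SOX9 were higher, by 0.068, 0.11 and 0.13. None of the cell type markers passed the test here, while the study lists KRT7 among genes induced by GRHL2 in HepG2 cells, from its own fit on counts. FGB, KRT7 and COL1A1 were higher in 4 of 4 pairs, with log2 FC of 0.28, 0.19 and 0.20, as were 13.4% of all genes. The part of these differences in those of the members was not tested.

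The sign of the members' median depended on the pairs included. It was 0.019 over 4 pairs, 0.068 without pair 4 and -0.029 without pair 2. Members with a positive log2 FC numbered 19, 12, 19 and 23 when pair 1, 2, 3 or 4 was left out. The SD of the pair differences had a median of 0.16 among the members, against 0.12 among genes with a mean log2 value of at least 5.

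Around the members, 52 other genes of lipid metabolism were examined in 5 lists, of 54 listed. None of the 52 passed the test, and 7 had an unadjusted limma p under 0.05 (13.5%, against 16% of all genes). A positive log2 FC was found for 48.1% of the 52, 51.5% of all genes and 45.2% of genes with a mean log2 value of at least 5. Groups did not overlap with pGRHL2 above in 5 of the 52 and below in 4, compared with 13.4% and 10.5% of all genes. Of the 10 genes that process SREBP or degrade its retention factors, 9 had a negative log2 FC, with a median of -0.056. Thus 10% of them were positive, against 45.2% of genes with a mean log2 value of at least 5, whose median was -0.010. These signs carry no test. The most negative log2 FC of this list was that of SPRING1, a factor needed for SREBP cleavage and SCAP recycling. SPRING1 had log2 values of 9.32, 9.34, 9.26 and 9.25 in pGRHL2 libraries 1 to 4, and 9.46, 9.44, 9.53 and 9.53 in pcDNA3 libraries 1 to 4. It was lower in pGRHL2 in 4 of 4 pairs, with a log2 FC of -0.20 ± 0.091 (SD over n = 4 pairs, limma adjusted p = 0.135).

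Among 9 genes of the isoprenoid branches, which use farnesyl and geranylgeranyl units, 7 had a negative log2 FC. The share positive was 22.2%, against 45.2% of genes with a mean log2 value of at least 5, which was not tested. FNTA, an alpha subunit of protein prenyltransferases, gave the largest, -0.23 ± 0.26 (SD over n = 4 pairs, limma adjusted p = 0.279). Its pairs 1 to 3 were lower and pair 4 was higher. Among 9 genes of sterol efflux and its nuclear receptors LXR, ABCG5, the partner of ABCG8 in the sterol exporter, had 0.22 ± 0.18 (SD over n = 4 pairs; limma adjusted p = 0.151) and was higher in 4 of 4 pairs. The 7 genes of sterol storage and lysosomal export had a median log2 FC of -0.0045, and SOAT2, which esterifies cholesterol, the largest value of -0.13 (limma adjusted p = 0.419).

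The 17 genes of fatty acid supply and glycerolipid synthesis (19 listed) had a median log2 FC of 0.048, with 13 positive and 4 negative. The share positive was 76.5%, against 45.2% of genes with a mean log2 value of at least 5, likewise not tested. ELOVL1, an elongase of saturated very long chains, gave the largest log2 FC, 0.21 (limma adjusted p = 0.233), with pair differences of 0.11, -0.027, 0.32 and 0.43. Its order of pairs was thus unlike that of FASN and SCD. Over all 52 genes, the shares higher in pGRHL2 were 50.0%, 57.7%, 48.1% and 44.2% in pairs 1 to 4, beside 6.25% of the members in pair 4, a difference that was not tested.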

How the data were processed

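HepG2 libraries (4 pGRHL2, 4 pcDNA3) were grouped and numbered by their labels. According to the methods, the authors mapped reads to hg38 (HISAT2 2.2.1), counted them over exons without strand in union mode with a minimum alignment quality of 10 (HTSeq 0.9.1), filtered out genes of low count, took rlog values (DESeq2 1.40.2) and divided them by mean transcript length. Tool versions are those of the submitters' processing notes, which for HISAT2 and DESeq2 differ from those in the methods. The deposited values, although labelled as FPKM, were on a log2 scale, and 3.71% were below 0. Differences of weakly counted genes are shrunken by rlog. No counts were used here, so depth, counting error and detection limits are unknown.

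The mean of same-numbered libraries was identical over the 4 numbers in 17561 of 17561 genes (largest spread 1.5e-13), a step that the methods do not describe. Deviations of paired libraries mirror each other by construction, which makes a correlation check of the pairing void. The planned and fitted test was limma 3.58.1 (R 4.3.3; lmFit, eBayes with trend) on all genes with the replicate number as a block, Benjamini-Hochberg adjustment over 17561 genes and a threshold of 0.05. The fits were tested on simulated data. Residual degrees of freedom were 3 with and 6 without the block.

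The members and lists were chosen with earlier results of these data known. Values in every library were given for called members, the largest absolute log2 FC in each role group, and the 5 largest increases and 5 largest decreases, and in each pathway list the largest absolute log2 FC was named. Markers of hepatocytes, cholangiocytes, leukocytes, endothelial cells and fibroblasts were listed likewise (PTPRC and COL1A2 were not analysed here). Symbols were matched to GENCODE release 44 (17537, or 99.9%), for coordinates, shared exon bases and transcripts. Transcripts were aligned to alternate contigs with minimap2 2.31-r1302 (98% identity or more, over 50% or more of the longest transcript). Alternatives were a fit without the block, robust eBayes, arrayWeights, 2 scalings, a mean of at least 5, trend removal (splines with 5 degrees of freedom), an adjusted p under 0.01, and leaving out each pair. Limiting the members to those with few shared bases, and applying scalings to the pair medians, were chosen after seeing the data. A stray character was removed from 1 value, and 0 columns belonged to other samples.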

Additional observations from a re-analysis of the deposited data

Results flagged for a closer look

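In 2 of 38 sets of 4 pair differences examined, 1 pair stood apart from the other 3 by more than Dixon's limit for 4 values. Chance alone gives about 1 in 20. The pair 4 difference of DHCR7 was -0.0026, while pairs 1 to 3 gave 0.22 to 0.23. That of ACACA was 0.29 in pair 3 and -0.45 to -0.37 elsewhere, and its longest transcript has a copy on an alternate contig of hg38.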

How the results depend on the processing

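The fit without the replicate block, whose degrees of freedom ignore the removed pair means, called 2 members higher (TM7SF2, adjusted p of 0.00723, and DHCR7, 0.0192) and 1 lower (SREBF2, 0.0440), and 1821 higher and 1427 lower genes in all (limma). With the block, 0 members were called under robust eBayes, arrayWeights, either scaling, a mean of at least 5, trend removal and an adjusted p under 0.01. Over all genes, against 297 higher and 88 lower, arrayWeights called 503 and 221, the same total without GRHL2 495 higher, a mean of at least 5 63 higher, trend removal 160 higher, and an adjusted p under 0.01 77 and 10. Leaving out a pair gave 79 to 156 higher and 8 to 68 lower genes, 0 members higher and 0 to 1 lower (ACACA without pair 3), and a member median of -0.029 (without pair 2) to 0.068 (without pair 4). This median was between 0.014 and 0.045 under the other settings. The adjusted p of TM7SF2 ranged from 0.0640 to 0.304 in fits with the block. Of the 11 members named by the rule for values in every library, 0 changed the sign of their log2 FC under the settings run, which for ACACA and LSS did not include a mean of at least 5. These 11 were named for the size of their log2 FC. Robust eBayes, the fit without the block and a mean of at least 5 leave that value unchanged, so the count says little about stability. Leaving out 1 pair changed the sign of 16 of the 32 members, FASN among them (0.030, and -0.074 without pair 2). Leaving out a pair removes samples, and the cause of the other shifts was not tested. Without counts, no limit set by depth could be given. rlog understates differences of weak genes.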
